A study of Rattus norvegicus with 6 samples.

Results

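The antioxidant and glutathione genes examined here are 10 of the 16499 gene symbols of the series. They are Hmox1, Nqo1, Gclc, Gclm, Gsr, Txnrd1, Srxn1, Prdx1, Sod2 and Cat, taken by symbol from the deposited table. Each had 1 transcript row, and all 10 reached the level required for testing. They were measured by RNA sequencing in synovial fibroblast-like cells (RASFLs), adherent cells grown by passaging from the joint lining of female Wistar rats with collagen-induced arthritis, an arthritis raised by immunization with type II collagen. The cells of 2 rats were each divided over 3 serological settings, so that each setting had 2 libraries, 1 per rat, and all of them shared the arthritic origin of the cells. The medium held fetal bovine serum (FBS), blood serum of untreated animals (MS−), or blood serum drawn at day 18 from animals receiving mechanical stimulation by needle (MS+), which the labels name acupuncture. The labels of MS− conflict, since 1 field calls the rats healthy and the others arthritic. The study describes the MS− serum both as taken ahead of any therapy and as coming from untreated arthritic animals, so sampling time and disease stage may differ between MS+ and MS− along with the stimulation, and these cannot be told apart. The number of serum donors is not stated, so the replicate is the rat that gave the cells. FBS differs from the other sera in species as well as in treatment, and these cannot be told apart.

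NRF2, encoded by Nfe2l2, is a transcription factor that KEAP1 holds in the cytoplasm and marks for destruction. When oxidants or electrophiles modify KEAP1, NRF2 enters the nucleus, pairs with a small MAF protein and binds antioxidant response elements in its target genes, from which BACH1 can exclude it. The best known targets degrade heme, reduce quinones, make glutathione and keep thioredoxin reduced. Sod2 and Cat, which remove superoxide and hydrogen peroxide, also answer to other factors such as NF-κB and FOXO proteins. In arthritic synovium these enzymes are known as the protection of cells exposed to oxidants from infiltrating leukocytes.

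Promoter sequence shows whether the element core stands close to the start in the members for which it was given. The promoter table of RefSeq (assembly GRCr8, a newer build than the one used for counting) held 8 of the 10 genes, with Hmox1 and Gsr not used here. The core TGACNNNGC was searched on both strands in the 250 bases before each start. It was found in 4 of the 8 genes, where a match at any listed start of a gene counted. Among all 33469 promoters of that length, each counted singly, 10.1% held it. The units differ, and the members were chosen as antioxidant genes, so these shares were not compared. The following windows run 5′ to 3′ on the strand of the gene, with the match, which lies on the opposite strand and so reads as its reverse complement, in capitals.
Gclm (chr2:213031948-213031986, plus strand): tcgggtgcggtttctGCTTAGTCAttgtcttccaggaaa
Txnrd1, the second of 2 listed starts (chr7:22755959-22755997, minus strand): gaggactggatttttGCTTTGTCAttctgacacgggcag
Sod2 (chr1:50050180-50050218, minus strand): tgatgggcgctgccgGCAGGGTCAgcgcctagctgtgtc
Prdx1 (chr5:135383756-135383794, plus strand): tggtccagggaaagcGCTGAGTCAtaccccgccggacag
The AP-1 site TGANTCA, bound by FOS and JUN proteins, was found in 2 of the 8 genes, Srxn1 and Prdx1. It was found in 6.34% of all promoters, with genes and promoters counted as above. In Prdx1 1 of its 2 AP-1 matches overlaps the core shown above. The match of Srxn1 is shown because no core was found beside it.
Srxn1 (chr3:161064735-161064771, plus strand): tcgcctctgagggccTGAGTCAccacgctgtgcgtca
Nqo1, Gclc and Cat had no match of either motif. Sequence outside these 250 bases was not searched, so a gene without a match may still hold the element elsewhere. A match is a run of letters and not a measured binding site.

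The 6 libraries held 5463316 to 5991889 reads, and 9820 transcript features were tested. Levels are normalized read counts scaled by library size (CPM), and 3 reads correspond to 0.491 to 0.551 CPM. The members rested on far more, with the fewest reads in Gclm and the most in Hmox1. The fibroblast marker genes summed to 63565 to 89008 CPM per library, led by Col1a1, although Vcam1 and Prg4, marker genes of the synovial lining, reached at most 0.542 and 3.32 CPM. Of 12 macrophage markers found, 8 were at 0 in every library, Cd163 and Itgam among them. Ptprc, Lyz2 and Aif1 were at 0 too. Ptprc had 5 transcript rows, and Lyz2 and Aif1 overlap other genes, so their 0 may come from the counting. The sum of the list was 13.8 to 15.6 CPM in FBS, 17.2 to 20.9 in MS− and 16.3 to 18.9 in MS+. Most of it was Cd14, at 12.1 to 13.1 CPM in FBS, 16.3 to 19.4 in MS− and 13.9 to 16.8 in MS+. All 5 blood markers found were at 0, although Hbb also overlaps other genes, as were 3 of 5 endothelial and 4 of 6 lymphocyte markers. Muscle genes were present at 985 to 1285 CPM in sum, led by Acta1 at 766 to 1200. Tnnt3 held 5.06 to 7.87 CPM, and Ckm and Mb reached at most 0.732 and 0.18. The myosin Myh1 separated the rats, at 19.6 to 47.6 CPM in rat 1 and 88.3 to 271 in rat 2. The part of the muscle genes in the results below was not tested. In bulk RNA, fewer cells of a type and less RNA per cell cannot be told apart.

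The members did not move in 1 direction. Between MS+ and MS−, their median log2 fold change was -0.01, the same as that of all 9820 features (-0.01). For MS+ against FBS the medians were -0.04 and 0.00, and for MS− against FBS -0.01 and 0.01. Hmox1 and Nqo1 were lower in rat serum than in FBS, Gclm lower to a smaller extent, Txnrd1 and Srxn1 highest in MS+, and Gclc, Gsr, Prdx1 and Cat nearly level. The direction was the same in the cells of both rats for 7 of 10 members in MS+ against MS−, and for 8 of 10 in each comparison with FBS. The 2 comparisons with FBS share the FBS libraries.

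**Figure D1:**
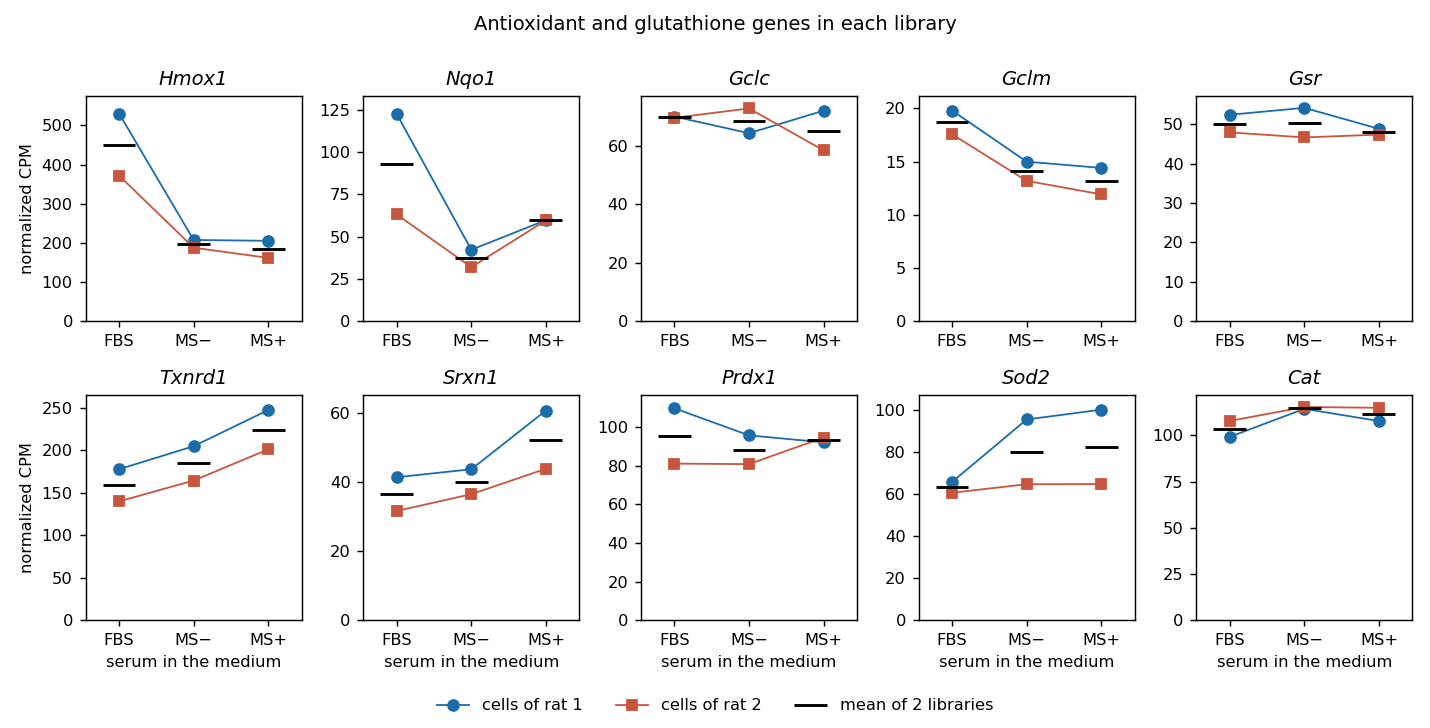
Normalized CPM (y axes, starting at 0) of the 10 members in each library by serum (x axes), with a line joining the libraries of 1 rat and a black bar for the mean of the 2 libraries. Hmox1 falls from 372 to 530.05 CPM in FBS to 162 to 207 in both rat sera, Nqo1 is lowest in MS− in both rats, and Txnrd1 and Srxn1 are highest in MS+ in both rats.

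Calls were made with limma at a Benjamini-Hochberg adjusted p under 0.05 over all features, first without and then with the rat as a block, a term that compares the sera within each rat. The log2 fold changes are the same in both fits. In MS+ against MS−, 0 of 10 members were called without the block, where 0.0204% of all features were. At an unadjusted p under 0.05 the counts were 0 of 10 members and 1446 of all features, and edgeR, limma-voom and DESeq2 without the block also called 0. With the block, 2 members were higher (Nqo1 and Txnrd1, background 5.27%) and 0 lower (background 4.78%). The libraries of MS+ and MS− did not overlap for 2 members, against 45.8% of all features, so that non-overlap by itself sets no member apart. The edgeR and limma-voom fits with the block called 3 members, adding Srxn1, where they called 1015 and 1014 of all features.

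Against FBS, more of the transcriptome differed. For MS+, 1 of 10 members was called without the block (Hmox1, background 9.61%). With the block, 3 were higher (Txnrd1, Srxn1 and Sod2, background 14.4%) and 3 lower (Hmox1, Nqo1 and Gclm, background 13.9%), and 5 did not overlap between groups (background 56.7%). For MS−, 1 of 10 was called without the block (Hmox1, background 4.81%). With it, 0 were higher (background 10.8%) and 2 lower (Hmox1 and Nqo1, background 9.63%), and 4 did not overlap (background 51.6%). At an unadjusted p under 0.05 without the block, 4 of 10 members stood in MS+ against FBS, where 27.5% of all features did, and 2 of 10 in MS− against FBS, where 21.1% did.

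**Figure D2:**
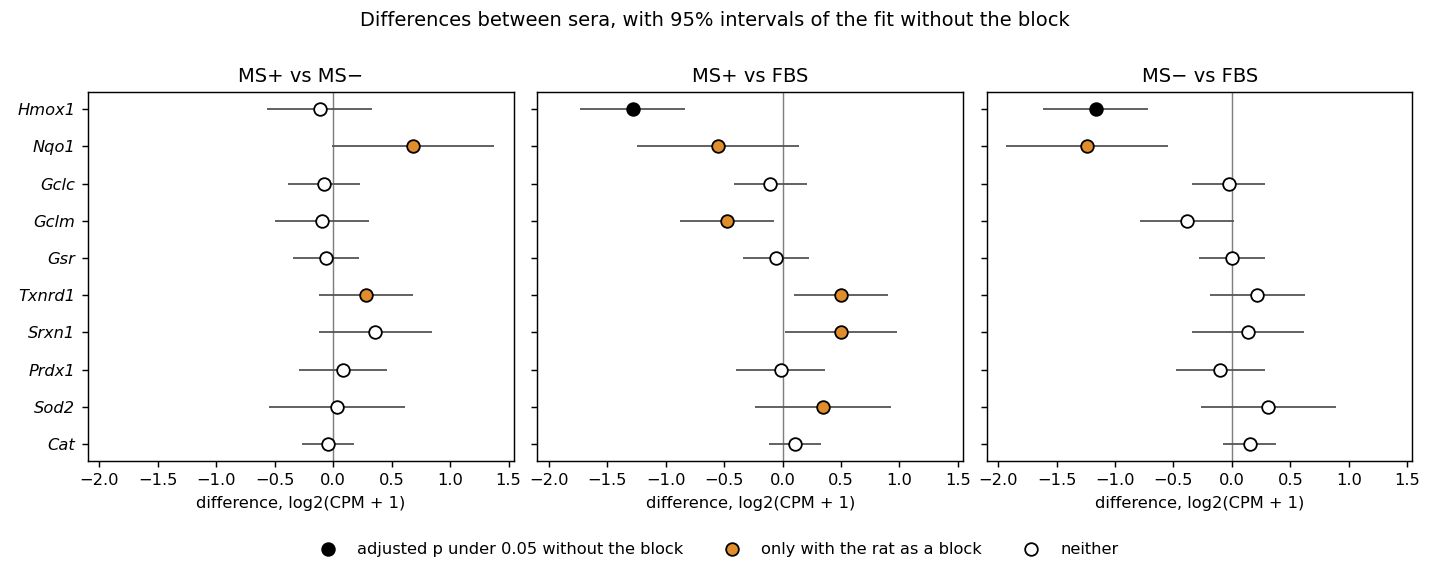
Difference of each member (y axis) in 3 comparisons, as log2(CPM + 1) on the x axis, with bars for the 95% interval of the limma fit without the block. Black points mark an adjusted p under 0.05 without the block (Hmox1 in both comparisons with FBS), orange points one with the block only, and white points neither.

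Hmox1 codes for heme oxygenase 1, which opens the heme ring and releases iron, carbon monoxide and biliverdin. Its row (NM_012580, chromosome 19, 13963139 to 13969960 in rn4, plus strand) held 530.05 and 372 CPM in FBS in the cells of rat 1 and rat 2, 207 and 188 in MS−, and 205 and 162 in MS+. Both FBS libraries stood above all 4 libraries with rat serum, and MS+ and MS− overlapped. The mean was 451 ± 112 CPM in FBS, against 198 ± 14.0 CPM in MS− and 183 ± 30.8 CPM in MS+ (SD, n = 2 each). Hmox1 was therefore 2.46-fold lower in MS+ than in FBS (log2 fold change -1.28, SE 0.19, limma adjusted p 0.0118) and 2.28-fold lower in MS− (log2 fold change -1.17, SE 0.19, limma adjusted p 0.0219). It fell in the cells of both rats, with log2 differences of -1.36 and -1.20 in MS+ and of -1.35 and -0.98 in MS−. The difference between MS+ and MS− was -0.11, with a 95% interval from -0.56 to 0.33.

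Those calls of Hmox1 rest on few libraries. In the comparison of MS+ with FBS, the limma adjusted p was 0.0525 on leaving out FBS replicate 1, 0.0571 for MS+ replicate 1 and 0.0733 for MS+ replicate 2. In that of MS− with FBS it was 0.0909 on leaving out FBS replicate 1, 0.107 for MS− replicate 1 and 0.13 for MS− replicate 2. With no filter on low values the latter p was 0.056. The log2 fold change kept its sign in each case. With the block, the adjusted p was 8.24e-08 and 3.01e-07, and over the other settings it reached from 1.43e-08 to 0.0733 in MS+ and from 7.07e-08 to 0.13 in MS−.

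Nqo1 codes for a quinone reductase that carries electrons from NADPH to quinones and is a standard readout of NRF2. It was the member that differed most between MS+ and MS−. Its row (NM_017000, chromosome 19, 37251147 to 37266040, minus strand) held 123 and 63.2 CPM in FBS, 42.3 and 32.0 in MS−, and 59.8 and 59.6 in MS+. MS− was lowest in both rats, the MS+ libraries were nearly equal to each other, and the FBS libraries lay far apart, rat 2 only just above MS+.

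The mean of Nqo1 in MS+, 59.7 ± 0.119 CPM, was 1.61-fold that in MS−, 37.1 ± 7.26 CPM (log2 fold change 0.68, SE 0.29, 95% interval -0.01 to 1.38). The limma adjusted p was 0.347 unblocked and 0.0119 blocked by rat, and ranged from 0.0104 to 0.701 over the alternatives. Against the FBS mean of 92.9 ± 42.0 CPM, MS− was 2.50-fold lower (log2 fold change -1.24, SE 0.29), for which the limma adjusted p was 0.0665 unblocked and 3.98e-05 blocked by rat (1.04e-05 to 0.285 over the alternatives). DESeq2 without the block and limma without FBS replicate 2 called it too. MS+ against FBS gave -0.55 (SE 0.29), and this rested mostly on rat 1, with -1.02 against -0.08 in rat 2. On leaving out FBS replicate 1 or 2 it became -0.08 or -1.03, and the difference of MS− from FBS became -0.76 or -1.71. The limma adjusted p of MS+ against FBS was 0.272 unblocked and 0.0163 blocked by rat (0.00576 to 0.851 over the alternatives).

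The glutathione members were Gclc and Gclm, the catalytic and modifier subunits of glutamate-cysteine ligase, which makes the rate-limiting step of glutathione synthesis, and Gsr, the reductase that restores glutathione from its oxidized form. Gclm passed the threshold in MS+ against FBS with the block, and Gclc in no comparison. The difference between the 2 subunits was not tested. Gclm (NM_017305, chromosome 2, 218895434 to 218915491, plus strand) held 19.8 and 17.6 CPM in FBS, 15.0 and 13.2 in MS−, and 14.4 and 11.9 in MS+. FBS stood above both rat sera without overlap, while MS+ and MS− overlapped. Gclm was 1.42-fold lower in MS+ than in FBS (log2 fold change -0.48, SE 0.17), at a limma adjusted p of 0.124 unblocked and 0.0376 blocked by rat, and 0.0299 to 0.388 over the alternatives. The MS− difference from FBS was -0.38 (95% interval -0.78 to 0.02), which passed in neither fit.

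Gclc (NM_012815, chromosome 8, 82724429 to 82762847, plus strand) held 69.9 and 69.5 CPM in FBS, 64.2 and 72.7 in MS−, and 71.9 and 58.4 in MS+. The groups overlapped throughout and the rats moved in opposite directions in every comparison. The 95% intervals of its differences were -0.38 to 0.23 for MS+ against MS−, -0.41 to 0.21 for MS+ against FBS, and -0.34 to 0.28 for MS− against FBS. Gsr (NM_053906, chromosome 16, 62255002 to 62297169, minus strand) held 52.4 and 47.9 CPM in FBS, 54.1 and 46.6 in MS−, and 48.8 and 47.4 in MS+. Its groups overlapped in all 3 comparisons, and the widest reach of its 95% intervals was -0.34 to 0.29. A change of Gclc or Gsr by 2-fold lay outside these intervals.

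The thioredoxin members were Txnrd1, the cytosolic selenoenzyme that reduces thioredoxin, Srxn1, sulfiredoxin, which repairs over-oxidized peroxiredoxins, and Prdx1, a peroxiredoxin that removes hydrogen peroxide. Txnrd1 and Srxn1 had the same order in the cells of both rats, lowest in FBS, then MS−, then MS+. Txnrd1 (NM_031614, chromosome 7, 23055544 to 23093815, minus strand) held 178 and 140 CPM in FBS, 205 and 164 in MS−, and 247 and 201 in MS+. The steps were nearly equal in both rats, 0.47 and 0.52 on the log2 scale from FBS to MS+ and 0.27 and 0.29 from MS− to MS+, while the level in rat 1 was higher throughout. The span of Txnrd1 overlaps the row of Eid3, so reads shared by both genes make its count uncertain.

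Txnrd1 was 1.41-fold higher in MS+ than in FBS (log2 fold change 0.50, SE 0.17; limma adjusted p 0.115 unblocked and 0.000318 blocked by rat, 0.000245 to 0.405 over the alternatives). Relative to MS− it was 1.21-fold higher (log2 fold change 0.28, SE 0.17), at a limma adjusted p of 0.513 unblocked and 0.0413 blocked by rat, and 0.0343 to 0.886 over the alternatives. Leaving out 1 library moved this difference to 0.44 (MS− replicate 1), 0.12 (MS− replicate 2), 0.13 (MS+ replicate 1) or 0.43 (MS+ replicate 2), and the one between MS+ and FBS to 0.33 (FBS replicate 2). The MS− difference from FBS of 0.22 (95% interval -0.19 to 0.62) passed in neither fit.

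Srxn1 (NM_001047858, chromosome 3, 142457352 to 142462725, plus strand) held 41.4 and 31.7 CPM in FBS, 43.7 and 36.5 in MS−, and 60.7 and 43.9 in MS+. Both MS+ libraries stood above all 4 others, the lower of them by a small margin. It was 1.43-fold higher in MS+ than in FBS (log2 fold change 0.50, SE 0.20; limma adjusted p 0.167 unblocked and 0.00445 blocked by rat, 0.00269 to 0.545 over the alternatives). Relative to MS− it was 1.30-fold higher (log2 fold change 0.36, SE 0.20), at a limma adjusted p of 0.476 unblocked and 0.0604 blocked by rat, and 0.0387 in the lowest of the alternatives to 0.858 in the highest. Leaving out 1 library moved it to 0.23 (MS− replicate 2), 0.13 (MS+ replicate 1) or 0.59 (MS+ replicate 2), and the difference between MS+ and FBS to 0.31 (FBS replicate 2) or 0.27 (MS+ replicate 1). The MS− difference from FBS was 0.14, with a 95% interval from -0.34 to 0.62.

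Prdx1 (NM_057114, chromosome 5, 136975780 to 136991630, plus strand) held 109.7 and 81.1 CPM in FBS, 95.7 and 80.8 in MS−, and 92.1 and 94.5 in MS+. Its groups overlapped in all comparisons, and its differences from FBS had 95% intervals of -0.39 to 0.36 in MS+ and -0.48 to 0.28 in MS−. Of the 4 genes whose promoter window holds the element core shown above, Gclm fell and Txnrd1 and Sod2 rose in MS+ against FBS in the fit with the block, and Prdx1 passed in no comparison.

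Sod2 codes for the mitochondrial superoxide dismutase and Cat for catalase, the peroxisomal enzyme that splits hydrogen peroxide. Sod2 (NM_017051, chromosome 1, 41862997 to 41870327, minus strand) held 65.8 and 60.7 CPM in FBS, 95.5 and 64.7 in MS−, and 100.2 and 64.8 in MS+. Both rats were lowest in FBS, but the step was large in rat 1 and small in rat 2, at 0.60 against 0.09 on the log2 scale in MS+ and 0.53 against 0.09 in MS−. Sod2 in MS+ against FBS differed by 0.35 (SE 0.24; limma adjusted p 0.408 unblocked and 0.0402 blocked by rat, 0.0237 to 0.953 over the alternatives). That difference was 0.04 without MS+ replicate 1 and 0.66 without MS+ replicate 2. Without a further library per rat, the difference between the rats was not tested.

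Sod2 was the same in MS+ and MS− within 0.07 on the log2 scale in either rat, with a 95% interval from -0.54 to 0.61. Cat (NM_012520, chromosome 3, 88654077 to 88686212, plus strand) held 99.2 and 108 CPM in FBS, 114 and 115 in MS−, and 108 and 115 in MS+. Its levels lay close together in all 6 libraries. The 95% interval of its difference was -0.27 to 0.18 for MS+ against MS− and -0.12 to 0.33 for MS+ against FBS. The MS− and FBS libraries did not overlap, yet the difference of 0.15 (95% interval -0.07 to 0.37) passed in neither fit.

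None of the 9 regulators of NRF2 was called by limma without the block. At an adjusted p under 0.05 the blocked fit gave 3 rises (background 14.4%) and 1 fall (background 13.9%) in MS+ against FBS. Nfe2l2 itself held 186 and 197 CPM in FBS, 200 and 202 in MS−, and 228 and 211 in MS+, and passed in no comparison, with a difference of 0.13 (SE 0.09) between MS+ and MS−. Keap1 held 35.8 and 34.0 CPM in FBS, 41.0 and 40.7 in MS−, and 46.5 and 45.5 in MS+, the 2 libraries of each serum close together and in the same order in both rats. It was higher in MS+ than in FBS by 0.39 (SE 0.11; limma adjusted p 0.0683 unblocked and 0.0193 blocked by rat, 0.0167 to 0.243 over the alternatives). Cul3, the scaffold of the ubiquitin ligase that KEAP1 serves, was higher by 0.36 in the same comparison (limma adjusted p 0.0586 unblocked and 0.00720 blocked by rat, 0.00637 to 0.22 over the alternatives). It lies outside the naming rule and was chosen after its values were seen.

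Bach1, the repressor at antioxidant response elements and at Hmox1 in particular, held 22.8 and 29.3 CPM in FBS, 18.3 and 29.8 in MS−, and 18.0 and 19.6 in MS+. The high libraries were those of rat 2 in FBS and MS−. It differed in MS+ against FBS by -0.44 (limma adjusted p 0.291 unblocked and 0.0486 blocked by rat, 0.038 to 0.629 over the alternatives). Maff, a small MAF partner of NRF2, held 44.6 and 26.6 CPM in MS− against 20.9 and 16.3 in MS+, a difference of -0.86 (limma adjusted p 0.207 unblocked and 0.00334 blocked by rat, 0.00194 to 0.533 over the alternatives). It was the only regulator of the 9 that the fit with the block called in MS+ against MS−, where the background of falls was 4.78%.

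**Figure D3:**
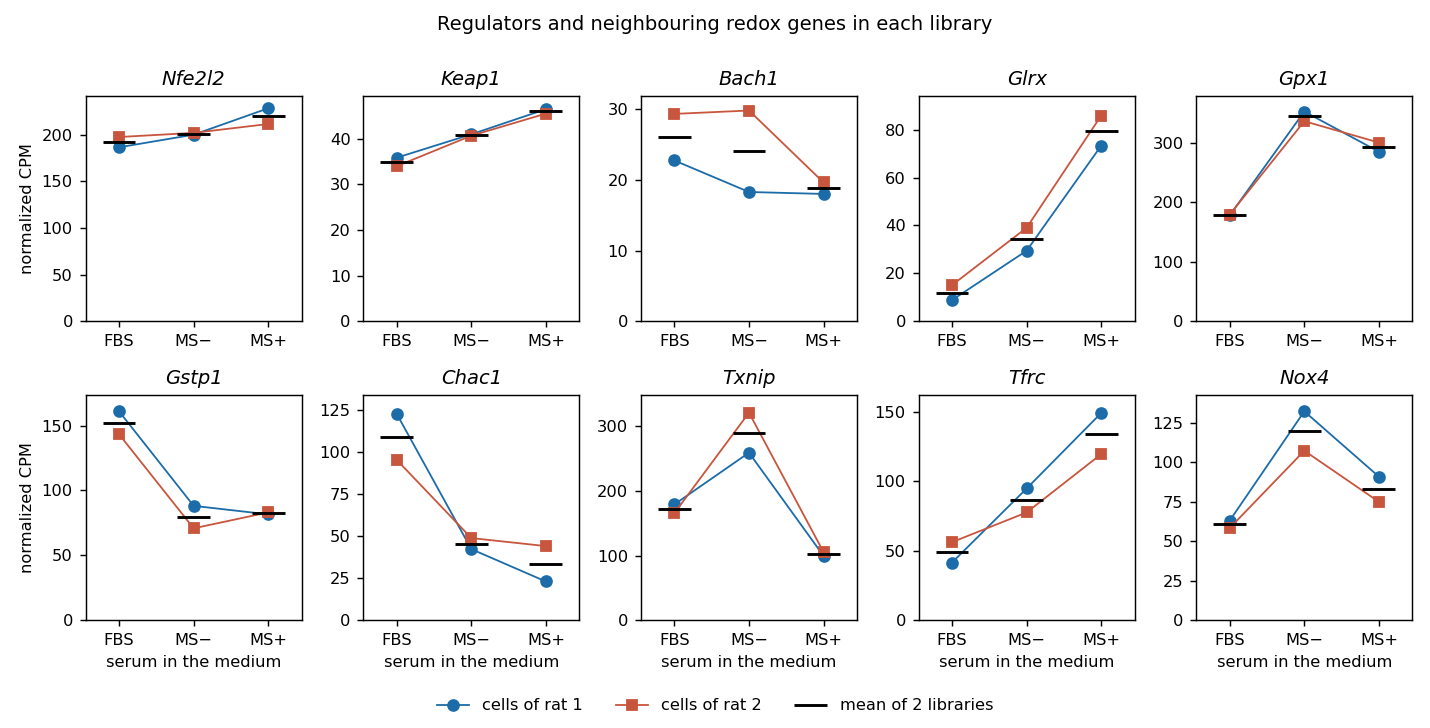
Normalized CPM (y axes, starting at 0) by serum (x axes) of 3 regulators of NRF2 and 7 genes of the redox lists, joined by rat, with black bars for the mean of the 2 libraries. Glrx and Tfrc increase from FBS over MS− to MS+, Txnip and Nox4 are highest in MS−, and Gstp1 and Chac1 are highest in FBS.

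Around the members, 10 lists of redox genes held 130 genes, of which 103 were tested. Without the block, limma called 0 higher and 1 lower in MS+ against MS−, 6 and 6 in MS+ against FBS, and 5 and 1 in MS− against FBS. With the block it called 13 higher and 6 lower in MS+ against MS−, which is 12.6% and 5.83% of the tested list genes. The counts were 22 and 18 in MS+ against FBS (21.4% and 17.5%), and 14 and 16 in MS− against FBS (13.6% and 15.5%). The background shares given above for the members apply here as well.

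**Figure D4:**
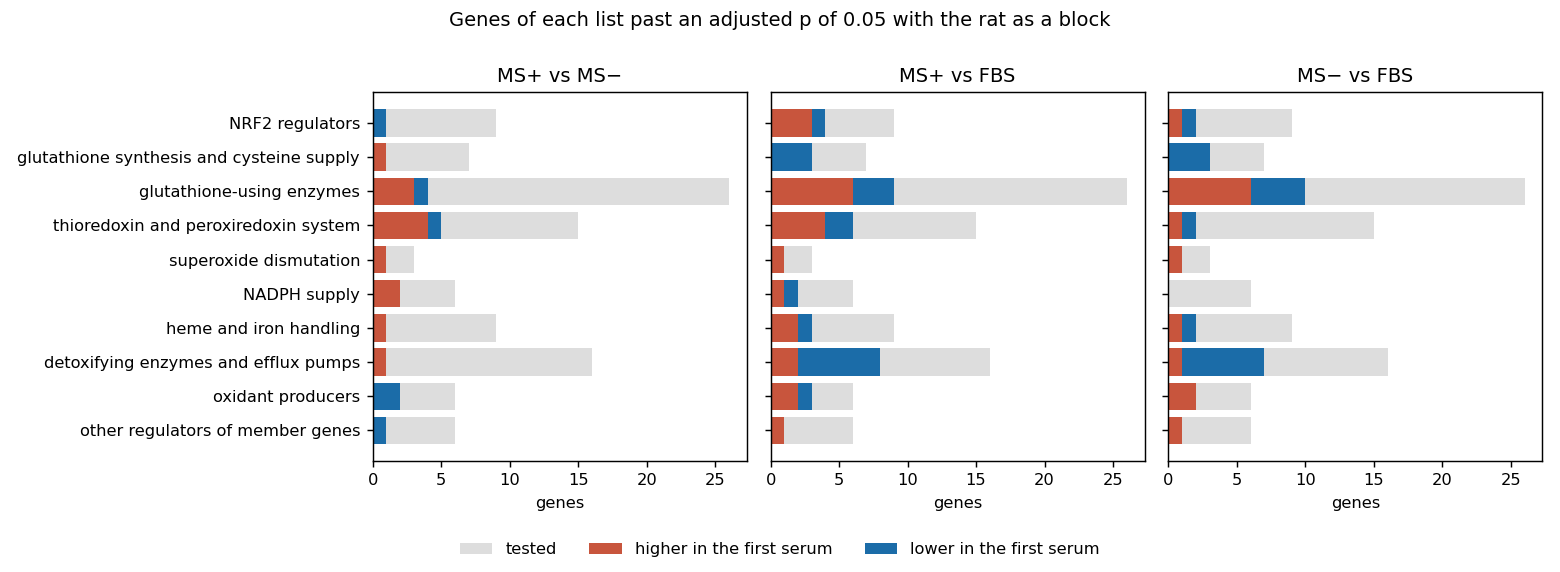
Number of genes (x axes) in each of 10 redox lists (y axis) that were higher (red) or lower (blue) in the first serum of each comparison at an adjusted p under 0.05 when blocked by rat, drawn over the number tested (grey). In MS+ against MS− the thioredoxin and peroxiredoxin list has the most calls by number, 4 higher and 1 lower of 15 (background 5.27% and 4.78%). The lists differ in size, and NADPH supply has 2 higher of 6 and the oxidant producers 2 lower of 6.

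In the list of glutathione synthesis and cysteine supply, 7 genes were tested, and every call against FBS was a fall. With the block these were 3 in MS+ (background 13.9%) and 3 in MS− (background 9.63%). Chac1 is counted in both, and the 2 comparisons share the FBS libraries. Chac1, which degrades glutathione and is a marker of amino acid stress, held 122 and 95.2 CPM in FBS, 42.3 and 48.8 in MS−, and 23.1 and 44.0 in MS+. It was lower in MS+ than in FBS by 1.73 on the log2 scale (log2 fold change -1.73, SE 0.29, limma adjusted p 0.0172). That p was 0.0996 on leaving out FBS replicate 1, 0.0561 for FBS replicate 2 and 0.0571 for MS+ replicate 1.

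Slc7a11 and Slc3a2 form the cystine importer that feeds glutathione synthesis. Slc7a11 held 13.4 and 14.3 CPM in FBS, 9.15 and 7.95 in MS−, and 8.83 and 10.3 in MS+. Slc3a2 held 334 and 281 CPM in FBS, 223 and 191 in MS−, and 258 and 266 in MS+. Both fell in MS− against FBS in the fit with the block, with log2 fold changes of -0.64 (limma adjusted p 0.0983 unblocked and 0.025 blocked by rat, 0.018 to 0.354 over the alternatives) and -0.57 (0.0508 unblocked and 0.000294 blocked by rat, 0.000144 to 0.255 over the alternatives). Slc3a2 in MS+ against MS− was higher by 0.34, with a limma adjusted p of 0.272 unblocked and 0.0236 blocked by rat (0.0199 to 0.65 over the alternatives), the same order as Nqo1.

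Enzymes that use glutathione moved in both directions. Of 26 tested, limma without the block called 4 higher and 2 lower in MS+ against FBS (background 9.61% in either direction). It called 3 higher and 1 lower in MS− against FBS (background 4.81% in either direction). Glrx, glutaredoxin, which removes glutathione from protein thiols, held 8.84 and 15.1 CPM in FBS, 29.5 and 39.0 in MS−, and 73.3 and 85.9 in MS+. The 3 sera did not overlap, in the same order in both rats. It rose in MS+ against FBS by 2.68 (SE 0.25, limma adjusted p 0.00456, and 0.0509 without MS+ replicate 1) and in MS− against FBS by 1.47 (SE 0.25, limma adjusted p 0.0265). The latter became 0.0961 on leaving out FBS replicate 1, 0.0852 or 0.151 for MS− replicate 1 or 2, and 0.0622 or 0.0618 for MS+ replicate 1 or 2. No filter on low values gave 0.0634, and only the compared groups in the fit 0.0635. Relative to MS−, MS+ differed by 1.20, with a limma adjusted p of 0.138 unblocked and 8.03e-05 blocked by rat (6.57e-06 to 0.486 over the alternatives).

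Gpx1, the cytosolic glutathione peroxidase, held 178 and 180 CPM in FBS (179 ± 0.916), 353 and 337 in MS−, and 285 and 301 in MS+. It rose in MS− by 0.94 (SE 0.09, limma adjusted p 0.00305), a call that held in every alternative run, with 0.0353 as the highest adjusted p. Its rise in MS+ was 0.71 (limma adjusted p 0.00785, and 0.0571 or 0.0531 on leaving out MS+ replicate 1 or 2). Gstp1, a glutathione S-transferase, went the other way, with 161 and 143 CPM in FBS, 88.2 and 70.9 in MS−, and 81.6 and 83.1 in MS+. It fell by 0.87 in MS+ (limma adjusted p 0.0117, and 0.0729, 0.087 and 0.0684 without FBS replicate 1 and MS+ replicates 1 and 2).

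In MS− Gstp1 fell by 0.93 (limma adjusted p 0.0125, and 0.0916 and 0.0681 without FBS replicate 1 and MS− replicate 2). Gstt2 rose in MS+ against FBS by 0.92 (limma adjusted p 0.022). This p became 0.111 or 0.0648 on leaving out FBS replicate 1 or 2, and 0.0953 or 0.105 for MS+ replicate 1 or 2. Its relative Gstt3 differed in MS+ against MS− by 1.23 (limma adjusted p 0.129 unblocked and 0.00623 blocked by rat, 0.00623 to 0.463 over the alternatives), at levels of 1.28 to 4.77 CPM. The S-transferases include close paralogs, so their counts are uncertain.

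In the thioredoxin and peroxiredoxin list, Txnip held the only call of all 103 genes in MS+ against MS− without the block. Txnip, the protein that binds and inhibits thioredoxin, held 179 and 166 CPM in FBS, 259 and 321 in MS−, and 99.6 and 106 in MS+. The 3 sera did not overlap, with MS− highest and MS+ lowest in both rats. Its log2 fold change in MS+ against MS− was -1.48 (SE 0.12, limma adjusted p 0.0339). It was lost without any 1 library, with adjusted p of 0.0861 or 0.0833 on leaving out FBS replicate 1 or 2, 0.14 or 0.209 for MS− replicate 1 or 2, and 0.259 or 0.456 for MS+ replicate 1 or 2. The call also ended with no filter on low values (0.137) and with only the compared groups in the fit (0.0829).

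Against FBS, Txnip fell by 0.74 in MS+ (limma adjusted p 0.0169) and rose by 0.74 in MS− (limma adjusted p 0.0235). The adjusted p of the fall was 0.0951 or 0.0582 on leaving out FBS replicate 1 or 2, and 0.11 or 0.075 for MS+ replicate 1 or 2. That of the rise was 0.0998 or 0.0943 on leaving out FBS replicate 1 or 2, 0.118 for MS− replicate 2, and 0.0569 or 0.0559 for MS+ replicate 1 or 2, and 0.0556 with only the compared groups in the fit. Of the 15 genes tested, the block gave 4 rises in MS+ against MS− (background 5.27%), in Prdx3, Prdx5, Prdx6 and Sesn3, named after their values were seen. Prdx6, a peroxiredoxin that also acts on phospholipids, was higher by 0.62 (limma adjusted p 0.133 unblocked and 0.000896 blocked by rat, 0.000499 to 0.462 over the alternatives). Sesn3, a sestrin, was higher by 0.92 (limma adjusted p 0.177 unblocked and 0.0027 blocked by rat, 0.00196 to 0.505 over the alternatives).

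Thioredoxin itself, Txn1, which lies outside the naming rule and was chosen after its values were seen, held 127 and 120 CPM in FBS, 94.2 and 82.8 in MS−, and 92.6 and 96.9 in MS+. It was lower in both rat sera than in FBS, with log2 fold changes of -0.38 in MS+ (limma adjusted p 0.068 unblocked and 0.00742 blocked by rat, 0.00497 to 0.246 over the alternatives) and -0.48 in MS− (0.0503 unblocked and 0.00203 blocked by rat, 0.00104 to 0.255 over the alternatives). Txn1 and its reductase Txnrd1 thus stood on opposite sides of FBS in MS+.

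Of the enzymes that supply NADPH, the electron donor of GSR, TXNRD1 and NQO1, Me1, malic enzyme, held 124 and 149 CPM in FBS, 149 and 173 in MS−, and 181 and 220 in MS+, and differed by 0.31 in MS+ against MS− (limma adjusted p 0.382 unblocked and 0.0269 blocked by rat, 0.0224 to 0.756 over the alternatives). Of the superoxide dismutases, Sod1 was higher by 0.38 in the same comparison (0.384 unblocked and 0.0339 blocked by rat, 0.0277 to 0.813 over the alternatives). The extracellular Sod3 held 669 and 937 CPM in FBS, 986 and 1275 in MS−, and 1179 and 1529 in MS+. It was higher than in FBS by 0.76 in MS+ (limma adjusted p 0.0741 unblocked and 5.76e-06 blocked by rat, 1.1e-06 to 0.276 over the alternatives).

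Among 9 genes of heme and iron handling, the iron storage subunit Fth1, itself an NRF2 target, held 993 and 776 CPM in FBS, 730 and 594 in MS−, and 712 and 583 in MS+. Like Hmox1 it was highest in FBS in both rats, although its groups lay closer together. It was lower than in FBS by 0.41 on the log2 scale in MS− (log2 fold change -0.41, limma adjusted p 0.23 unblocked and 0.00144 blocked by rat, 0.000577 to 0.646 over the alternatives). In MS+ it was lower by 0.45 (log2 fold change -0.45, limma adjusted p 0.149 unblocked and 0.000564 blocked by rat, 0.000254 to 0.476 over the alternatives). Tfrc, the transferrin receptor that brings iron into cells, held 41.6 and 56.2 CPM in FBS, 94.8 and 77.5 in MS−, and 149 and 119 in MS+. It rose in MS+ against FBS by 1.45 (SE 0.18, limma adjusted p 0.0084, and 0.0691 without MS+ replicate 1). Fth1 and Tfrc thus changed in opposite directions in the blocked fit.

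Of 16 detoxifying enzymes and efflux pumps, the block gave 2 rises and 6 falls in MS+ against FBS and 1 rise and 6 falls in MS− against FBS. The background was 14.4% higher and 13.9% lower for MS+, and 10.8% and 9.63% for MS−. In both comparisons, 4 of the 6 falls were in aldo-keto reductases, Akr1a1, Akr1b1, Akr1b8 and Akr1b10. The Akr1b genes are close paralogs, so their counts are uncertain. Akr1a1 held 610 and 546 CPM in FBS, 464 and 412 in MS−, and 399 and 426 in MS+. It fell in MS+ by 0.49 (log2 fold change -0.49, limma adjusted p 0.0389), a call lost without any 1 of the 6 libraries, at 0.164 or 0.0801 on leaving out FBS replicate 1 or 2, 0.064 or 0.0636 for MS− replicate 1 or 2, and 0.185 or 0.116 for MS+ replicate 1 or 2. No filter on low values gave 0.0622, and only the compared groups in the fit 0.0632. Ptgr1, an NRF2 target, codes for an enzyme that acts on prostaglandins and leukotrienes. Its row held 58.8 CPM in rat 1 and 9.28 in rat 2 in FBS, 17.0 and 7.77 in MS−, and 22.7 and 12.1 in MS+. Rat 1 stood above rat 2 in every serum.

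On the side of oxidant production, Nox4, an NADPH oxidase that releases hydrogen peroxide, held 63.0 and 58.4 CPM in FBS, 132 and 107 in MS−, and 90.8 and 74.9 in MS+. It was highest in MS− in both rats. It rose in MS− against FBS by 0.96 (SE 0.14, limma adjusted p 0.0164, and 0.0867, 0.0775 and 0.107 without FBS replicates 1 and 2 and MS− replicate 1). Relative to MS−, MS+ differed by -0.52 (limma adjusted p 0.196 unblocked and 0.00305 blocked by rat, 0.00194 to 0.538 over the alternatives), the order being opposite to that of Nqo1.

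Duox1, a further oxidase, held 11.5 and 14.4 CPM in FBS, 10.4 and 10.3 in MS−, and 4.14 and 7.16 in MS+, and fell in MS+ against FBS by 1.10 (log2 fold change -1.10, limma adjusted p 0.0444). This call was lost without any 1 library, at 0.121 or 0.165 on leaving out FBS replicate 1 or 2, 0.0794 or 0.079 for MS− replicate 1 or 2, and 0.168 or 0.0519 for MS+ replicate 1 or 2. It was lost as well with DESeq2 (0.0523), with no filter on low values (0.0868) and with only the compared groups in the fit (0.079). Foxo3, a transcription factor that controls Sod2 and Cat, held 18.7 and 20.1 CPM in MS− against 13.0 and 11.2 in MS+, a difference of -0.64 (limma adjusted p 0.214 unblocked and 0.0331 blocked by rat, 0.0308 to 0.532 over the alternatives).

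The naming rule took several other genes. Foxo4 held 18.2 and 18.1 CPM in FBS, 25.6 and 24.4 in MS−, and 26.7 and 29.4 in MS+, and rose in MS+ against FBS by 0.60 (SE 0.13, limma adjusted p 0.0352). This call was lost without any 1 library, at 0.132 or 0.117 on leaving out FBS replicate 1 or 2, 0.0685 or 0.0676 for MS− replicate 1 or 2, and 0.118 or 0.145 for MS+ replicate 1 or 2. With all 6 libraries it was also lost with DESeq2 (0.097), with no filter on low values (0.0522) and with only the compared groups in the fit (0.0686). The remaining ones were called in the blocked fit only. Nfe2l1, a relative of NRF2, was higher in MS− than in FBS by 0.31 (limma adjusted p 0.0203 blocked by rat, 0.0203 to 0.696 over the alternatives), and Sqstm1, which draws KEAP1 into autophagy, differed by -0.24 (0.0469 blocked by rat, 0.0365 to 0.856 over the alternatives). Taldo1 of the pentose phosphate pathway differed by -0.36 in MS+ against FBS (0.0144 blocked by rat, 0.0104 to 0.354 over the alternatives). Akr7a2 was higher by 0.56 in MS+ against MS− (0.0283 blocked by rat, 0.0221 to 0.552 over the alternatives). Akr1b10, at levels of 1.08 to 6.80 CPM, differed by -0.90 in MS− against FBS (limma adjusted p 0.353 unblocked and 0.0305 blocked by rat, 0.0281 to 0.686 over the alternatives). In MS+ against FBS it differed by -0.95 (0.259 unblocked and 0.0171 blocked by rat, 0.0171 to 0.778 over the alternatives).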

How the data were processed

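Poly(A) RNA of 6 cultures was sequenced. A company removed low-quality reads, the authors aligned the rest to rn4 with Bowtie2 2.1.0 and counted reads per transcript with HTSeq 0.5.4p3 (intersection-nonempty mode, which drops reads shared by overlapping transcripts; strand use is not stated), per the labels and the study's methods. The authors deposited the counts as a normalized signal, CPM scaled by TMM. Whole reads were recovered for 100% of values (tolerance 1e-06). Coordinates are those of rn4, written 1-based.

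The most abundant row stood for each gene. Rows were tested where both libraries of at least 1 group reached 1 CPM. The main fit was limma 3.58.1 under R 4.3.3 (lmFit and trended eBayes, two-sided tests) of log2(CPM + 1) values, over all 6 libraries, with Benjamini-Hochberg adjustment over 9820 features. Fold changes in words are ratios of mean CPM, and log2 fold changes are on the log2(CPM + 1) scale, which understates low genes. The replicate number pairs libraries, since the labels name the same 2 rats in each group. The rat 2 minus rat 1 differences correlated across features by 0.616 (FBS and MS−), 0.494 (FBS and MS+) and 0.590 (MS− and MS+). The rat as a block, edgeR 4.0.16, limma-voom and DESeq2 1.42.0 on the recovered reads, other scalings, a pseudocount of 0.1, no filter, only the 2 groups compared, summed rows and the omission of each library were alternatives. Limma-voom with the block was added after the data were seen. Floors of 3 reads cover counting error only. Without the block, the p-values cover the spread between the cells of 2 rats. With it, they cover the spread left after the difference between the rats is removed. In both limma fits the spread of a gene is drawn towards that of other genes of similar level. With so few libraries, a gene can therefore pass although its own 2 rats differ much in size of change. Neither covers the spread between serum donors. The members and lists were chosen with earlier results of these data known. Of the pathway lists, Nfe2l2, Keap1 and Bach1 were always named, with up to 3 genes of largest change called without the block, or up to 2 with it, per list and comparison. 1 gene that this rule takes is not reported here. The limma procedure without the block was tested on simulated reads that held no difference between rats. The fit with the block was not tested in this way.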

Additional observations from a re-analysis of the deposited data

How the results depend on the processing

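The members' calls depended on whether the cells' rat was modelled. In MS+ against MS−, the 0 members called became 2 with the rat as a replicate block, and 3 with edgeR or limma-voom with that block. For MS+ against FBS, 1 became 6 in each of those 3 fits, and leaving out libraries gave 0 to 1, with 0 without FBS replicate 1, MS+ replicate 1 or MS+ replicate 2, where calls over all features dropped from 944 to 165, 25 and 169. For MS− against FBS, 1 became 2 with each of those 3 fits and with DESeq2, and 0 with no filter on low values (Hmox1 adjusted p 0.056). Leaving out libraries gave 0 to 2, with 0 without FBS replicate 1, MS− replicate 1 or MS− replicate 2 and 2 without FBS replicate 2, where all calls went from 472 to 105, 121, 125 and 178. The block compares sera within each rat, and leaving out a library gives fewer samples; what else moved the counts was not tested. Counts over all features moved more, to 987 with the block from 2 in MS+ against MS−, to 2773 from 944 in MS+ against FBS, and to 2011 from 472 in MS− against FBS.

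Over the members' differences and the alternatives, 479 values kept direction and side of the threshold, 28 passed it newly, 7 no longer passed it and 26 changed sign. Another scaling shifted the median of all features by at most 0.05 on the log2 scale. Gsr in MS− against FBS was -0.0259 with library totals, -0.00589 with DESeq2 size factors, -0.00763 with edgeR, -0.0103 with limma-voom, -0.00446 with DESeq2, -0.00860 with edgeR and the block, and -0.00870 with limma-voom and the block. Leaving out 1 library, log2 differences in MS+ against MS− ran from -0.286 to 0.0565 for Hmox1, -0.223 to 0.0726 for Gclc, -0.221 to 0.0324 for Gclm, -0.168 to 0.0431 for Gsr, -0.276 to 0.345 for Sod2, -0.0361 to 0.205 for Prdx1, -0.0911 to 0.000757 for Cat and -0.638 to 0.0382 for Bach1. For MS+ against FBS they ran from -0.252 to 0.0443 for Gclc, -0.121 to 0.00491 for Gsr and -0.231 to 0.20 for Prdx1. For MS− against FBS they ran from -0.116 to 0.0596 for Gclc, -0.0504 to 0.326 for Srxn1, -0.101 to 0.11 for Gsr, -0.316 to 0.116 for Prdx1, -0.477 to 0.199 for Bach1 and -2.25 to 0.29 for Ptgr1. The members had at least 65 reads in every library, and each serum had the cells of 2 rats.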
